A study of Mus musculus with 2 samples.

Results

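B cells were examined among live CD45+ cells sorted from liver tumors of mice, using single-cell RNA sequencing of 3′ transcript ends. Their members were chosen by measured counts of unique molecular identifiers (UMIs, each standing for 1 captured transcript). A cell was taken as a B cell when it held at least 3 UMIs of Cd79a and Cd79b together and at least 1 UMI of Ms4a1. It could hold at most 1 UMI of Cd3d, Cd3e and Cd3g together, under 0.5% of its UMIs from S100a8 and S100a9, and no UMI of Csf1r or Siglech. Of 25814 cells with at most 6000 detected genes and at most 25% mitochondrial UMIs, 921 met this rule, 442 in the lenvatinib library and 479 in the combo library. Since measured values chose the cells, the levels given for them are descriptions.

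The tumors arose in male wild-type C57BL/6 J mice, aged 6 to 8 weeks, after plasmids for human MYC, a guide RNA against Trp53 and sleeping beauty transposase were forced into the liver through the tail vein. All mice received the kinase inhibitor lenvatinib at 30 mg/kg from 12 days after injection for 25 days, as a model of lenvatinib-resistant hepatocellular carcinoma. They then received lenvatinib alone (30 mg/kg, the lenvatinib library) or lenvatinib with the CDK4/6 inhibitor palbociclib (100 mg/kg, the combo library). Other arms of the study are not analysed here. There was 1 library for each treatment, and the number of mice behind a library is not given in the sources used here. Treatment, mouse, sort and library preparation therefore cannot be told apart, and no p-value is given. Levels are UMIs of a gene in the summed B cells, scaled to a common total (CPM). Intervals beside shares are exact 95% intervals. The range beside a ratio divides the exact 95% limits of one library by the opposite limits of the other. Such a range is not itself a 95% interval, and both kinds cover counting error only.

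A B cell carries a membrane antibody as its antigen receptor, which signals through the Cd79a and Cd79b chains and is restrained by the inhibitor Cd22. Naive follicular B cells make IgM and IgD from the same rearranged gene, and the factors Pax5 and Ebf1 hold their identity. After activation some become plasma cells, which lose Pax5 and Ms4a1 (CD20), switch on Prdm1 and Xbp1 and expand the endoplasmic reticulum to secrete antibody.

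B cells made up 3.11% (2.83 to 3.41) of the kept cells of the lenvatinib library and 4.12% (3.77 to 4.50) of those of the combo library, a ratio of 1.33 (1.11 to 1.59). That ratio depended on the limit for neutrophil RNA. With S100a8 and S100a9 held under 0.2% of UMIs in place of 0.5%, it was 1.01. The cells that met the 2 positive criteria numbered 515 and 580, of which the negative criteria left out 73 and 101. Most of the cells left out held 2 or more Cd3 UMIs (55 in the lenvatinib and 61 in the combo library). These criteria overlap: 4 and 27 cells exceeded the S100 limit, 7 and 24 held Csf1r, and 10 and 11 held Siglech.

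Values close to the thresholds were as follows. Just inside the Cd79 limit, 19 lenvatinib and 13 combo members held 3 UMIs, whereas 15 and 8 otherwise eligible cells held 2. For Ms4a1, 99 and 121 members held a single UMI, and 125 and 117 otherwise eligible cells held none. The cells just outside the Ms4a1 limit held much antibody RNA. They carried 156724 (lenvatinib) and 269967 (combo) CPM of Igkc, the kappa constant chain, and 33057 and 49230 CPM of Jchain, the joining chain of secreted IgM and IgA. The factor Ebf1 stood at 696 and 552 CPM in these excluded cells, below the 1372 and 1466 CPM of members with 1 Ms4a1 UMI. For the Cd3 limit, 85 and 80 members held 1 UMI and 14 and 7 otherwise eligible cells held 2.

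The libraries held 98107503 (lenvatinib) and 93583402 (combo) UMIs, of which B cells gave 1879746 and 2345116. B cells were shallow cells. Their median was 3368.5 UMIs in the lenvatinib and 3543 in the combo library, against 5541 and 5754 over all kept cells. The range was wide, from 522 to 36843 and from 1253 to 60197 UMIs, and the 20 largest B cells held 18.8% and 24.7% of all B cell UMIs. Before cell filtering, 49 barcodes occurred in both libraries, and 0 of them were B cells in both. The doublet caller Scrublet marked 22 (4.98%) and 7 (1.46%) members, and these stayed in the summed counts.

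RNA of other cell types entered the summed levels of B cells unequally in the 2 libraries. In the lenvatinib library 47 members (10.6%) held at least 3 UMIs of the natural killer (NK) cell genes Ncr1, Klrb1c, Nkg7 and Gzma, against 14 (2.92%) in the combo library. These cells were larger than other B cells, with medians of 6989 and 10270 UMIs, and Scrublet marked 19 and 5 of them. The cut was made on raw UMIs, which favors larger cells. A single lenvatinib cell of 8994 UMIs held 6201 UMIs of hemoglobin. Hemoglobin genes summed to 3412 CPM in lenvatinib B cells and 8.10 CPM in combo B cells. In the combo library, 17 members also met a gate for plasma cells (Jchain of at least 10 UMIs, immunoglobulin constant genes of at least 5% of UMIs), against 2 in the lenvatinib library. Because of this, each level is also given for a reduced set of 392 (88.7%) and 452 (94.4%) B cells without these 3 kinds of member. The reduced set was trimmed after its values were seen, and it has medians of 3278 and 3476 UMIs. The kinds of member overlap. Of the 14 combo members with NK UMIs, 10 lay outside the plasma gate, so their median of 10270 UMIs includes plasma-gate cells.

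**Figure D1:**
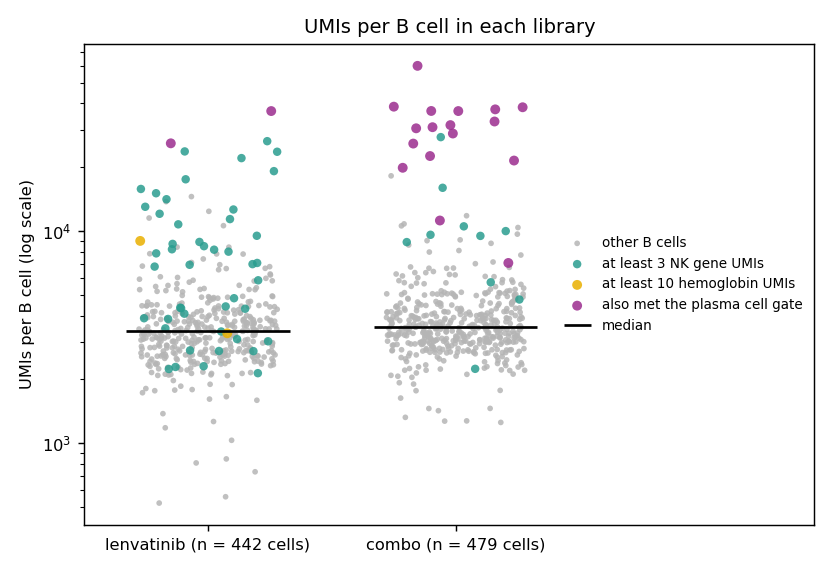
UMIs per B cell on a log scale, 1 point per cell, for the 442 lenvatinib and 479 combo B cells, with the cells that met the plasma cell gate, held 3 or more NK UMIs or held 10 or more hemoglobin UMIs marked, and the median drawn as a line. The 17 plasma-gate cells of the combo library lie between 7079 and 60197 UMIs, above the library's median of 3543.

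Neutrophil transcripts were higher in the combo library in B cells and T cells alike. The 6 neutrophil markers summed to 320 and 1675 CPM in B cells, to 348 and 1866 CPM in the reduced set and to 253 and 1599 CPM in T cells. After each cell was thinned to 1500 random UMIs, 18.5% of the lenvatinib and 71.0% of the combo cells of the reduced set held S100a8, and 17.3% and 65.7% of T cells did. The share in T cells, which should lack the gene, was nearly the same as in B cells. Both groups were held under the same 0.5% limit for S100a8 and S100a9, so this likeness was partly set in advance. A UMI of S100a8 is read as background in both, which was not tested. The T cells used as this reference had medians of 6444 and 5643 UMIs before thinning.

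The B cell label held against its markers. Ebf1, which the rule did not use, was found in 95.7% of lenvatinib and 97.5% of combo members, at 1530 and 1384 CPM. Other kept cells had 20.6 and 19.8 CPM of Ebf1. Ighd, the IgD heavy chain of naive cells, was found in 77.8% and 75.2% of members at 606 and 463 CPM, against 9.53 and 7.47 CPM in other cells. The marker Ly6d was found in 91.4% and 94.2%. The rule genes themselves stood at 1769 and 1879 CPM for Cd79a and 874 and 702 CPM for Ms4a1. The rule held Cd3e, Csf1r and Siglech low or at 0. Macrophage genes summed to 44.2 and 154 CPM against 39.1 and 140 CPM in T cells.

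Genes the rule did not use were ranked by their level in B cells over all other kept cells, taking the lower of both libraries. The IgE receptor Fcer2a (CD23) came first in this order, at 87.0-fold over other cells in the lenvatinib library and 74.9-fold in the combo library. Cr2, the complement receptor CD21, stood at 93.5-fold and 61.7-fold, and Fcmr, the receptor for IgM, at 91.1-fold and 59.8-fold. The factor Pax5 stood at 86.7-fold and 69.5-fold. The adaptor Bank1 (74.7-fold and 51.5-fold) and the inhibitory receptor Cd22 (34.7-fold and 42.4-fold) followed. Scd1, a fatty acid desaturase, was also among the first 20, at 91.0-fold and 58.3-fold. Ighg3, the IgG3 heavy chain, differed most between the libraries in this measure, with 74.0-fold and 519-fold, and 93.0% of its combo counts came from the plasma-gate cells.

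The B cells that carried plasma cell RNA were few but large. They made up 0.452% (0.0548 to 1.62) of lenvatinib members and 3.55% (2.08 to 5.62) of combo members, and held 3.34% and 21.8% of the summed UMIs. Each library as a whole held a like share of cells in the plasma gate, 68 (0.479%) and 58 (0.499%) of kept cells. What differed was the part of those cells that also met the B cell rule, 2.94% (0.358 to 10.2) and 29.3% (18.1 to 42.7). The plasma-gate cells outside the B cell rule numbered 66 and 41, with medians of 11367 and 26579 UMIs. Of these, 64 and 40 had no Ms4a1 UMI and 29 and 6 had fewer than 3 Cd79 UMIs. Depth thus differed with library and with membership, and its part in the difference was not tested.

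Each of the 17 combo cells made mainly 1 heavy chain. The leading chain was Ighg2b in 5 cells, Ighg2c in 4, Ighm in 3, Ighg1 in 2, Igha in 2 and Ighg3 in 1, so 14 of the 17 carried a switched isotype. The leading heavy chain took 91.3% to 100% of the heavy chain UMIs (median 99.8%). Light chain was Igkc in 16 cells and Iglc1 in 1. Of the 2 lenvatinib cells, one carried Ighg1 with Igkc in 36843 UMIs, and the other carried Ighm with Iglc1 in 25953 UMIs. Immunoglobulin constant genes filled 9.68% to 61.6% (median 30.5%) of the UMIs of a combo cell.

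**Figure D2:**
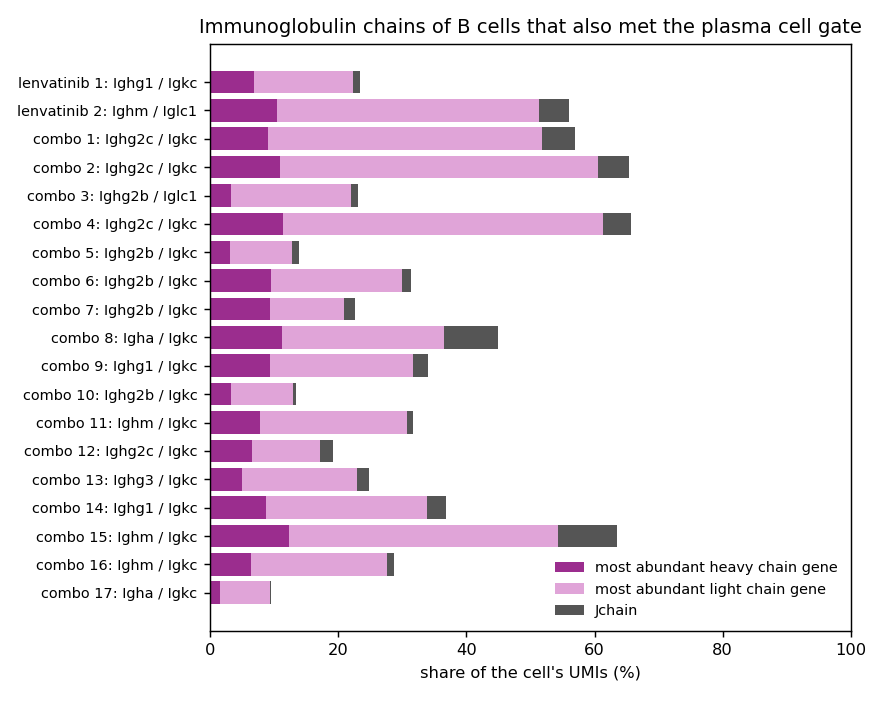
For each B cell that also met the plasma cell gate (2 lenvatinib and 17 combo cells, 1 row each), bars from 0 show the share of the cell's UMIs (%) from its leading heavy chain and its leading light chain. In the combo cells, 5 rows lead with Ighg2b and 16 rows carry Igkc.

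The gates required Jchain and immunoglobulin RNA on one side and Ms4a1 and Cd79 on the other, so these levels describe the selection. Jchain ranged from 14 to 3056 UMIs per combo cell (median 544), and Mzb1, a chaperone of antibody folding, from 2 to 440 (median 144). The plasma cell factors were found in most: Xbp1 in 2 to 86 UMIs (median 27), Prdm1 in 14 cells and Irf4 in 16, and the surface marker Sdc1 (CD138) in 16. Ms4a1 was present at 1 to 10 UMIs (median 3). Of genes that neither gate used, Ebf1 was found in 13 cells with a median of 2 UMIs, and Cd74, the invariant chain of MHC class II, stood at 44 to 284 UMIs (median 83). Ighd was found in only 2 of the 17. At least 2 UMIs of 10 mitosis genes were found in 8 of the 17 combo cells and in 1 of the 2 lenvatinib cells, and Scrublet marked 0 of the 19 as doublets.

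Across all B cells, 61 of 3155 genes with at least 50 CPM in a library (1.93%) were at least 2-fold higher in the combo library and 254 (8.05%) were at most 0.5 times the lenvatinib level. The median gene stood at -0.33 on the log2 scale, while immunoglobulin constant genes took 2.32% of UMIs in the lenvatinib and 8.55% in the combo library. With the TMM scaling of edgeR the median was 0.06 and the calls were 113 higher and 65 lower. Median-ratio scaling gave 0.04 with 119 higher and 73 lower, and a total without mitochondrial, ribosomal protein, hemoglobin, immunoglobulin and neutrophil genes gave -0.13 with 120 higher and 176 lower. Log2 values below are therefore to be read against the all-gene median beside them.

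Of the 61 higher genes, 5 were immunoglobulin constant genes and 5 were of the plasma cell list. Leaving out variable genes, the largest ratio belonged to Ighg2c, the IgG2c heavy chain, with 12.8 CPM in lenvatinib B cells and 6672 CPM in combo B cells, 523-fold. Ighg2b followed with 38.8 and 4271 CPM, 110-fold. Jchain stood at 1019 and 6813 CPM, 6.68-fold. The plasma-gate cells gave 99.6%, 99.3% and 99.1% of the combo counts of these 3 genes. Jchain was level in the reduced set, at 74.2 and 75.2 CPM and a ratio of 1.01 (0.699 to 1.47), and Ighg2b was too, at 1.07-fold. The gate chose its cells by Jchain and immunoglobulin RNA, so these shares and the reduced levels were largely set by it. With only the plasma-gate cells left out, the log2 ratio of Jchain was -1.10, so its level also depended on the other members removed.

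Variable genes showed the same origin in single cells. Ighv7-3 had 2.66 CPM in lenvatinib and 67.4 CPM in combo B cells, and 1 combo cell gave 98.1% of the latter. Igkv9-124 rested on 1 combo cell for 98.4% of its counts. Igkv1-110, at 159 CPM, was spread over more cells, the largest giving 39.1%. In the lenvatinib library Igkv6-32, at 17.0 CPM, came wholly (100%) from the 2 plasma-gate cells.

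Secretory pathway genes moved with the same cells. Of the 10 plasma cell genes, 6 passed the level filter in all B cells and 5 of these were at least 2-fold higher, with a median log2 ratio of 1.88 against -0.33 for all genes. Xbp1, the factor of the unfolded protein response, stood at 74.5 and 282 CPM, 3.78-fold. Mzb1 stood at 367 and 1320 CPM, 3.60-fold, and the signal peptidase subunit Sec11c at 2.21-fold. Other chaperones and folding enzymes were also higher. Hsp90b1 (GRP94) stood at 558 and 1468 CPM, Pdia6, a disulfide isomerase, at 106 and 331 CPM, and Creld2 at 35.6 and 143 CPM. Slpi, a secreted protease inhibitor, stood at 172 and 1042 CPM, and 1 combo cell gave 66.1% of its counts. The plasma-gate cells supplied 84.8%, 72.6% and 89.0% of the combo counts of Hsp90b1, Pdia6 and Creld2. The 4 plasma cell genes that passed the filter in the reduced set had a median of -0.02, with none past 2-fold, and T cells had 0.04.

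Folding genes of this kind are known to share the endoplasmic reticulum stress response element, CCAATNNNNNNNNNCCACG, which was searched on both strands in the 250 bases before each gene start of RefSeq (build GRCm38.p6). It was present in 35 of 27025 promoters (0.130%), in 9 of the 2526 genes that passed the filter and had a promoter sequence (0.356%) and in 3 of the 41 such genes at least 2-fold higher (7.32%). None of 203 lower genes held it (0 of 203). The stretches around the 3 matches are printed to show the element, each 5′ to 3′ along its gene. The CCAAT and CCACG parts or their reverse complements are in capitals. The 3 genes are shown because they held a match, not because of their rank by ratio. A match describes letters only and shows no binding.
Hsp90b1, chr10:86705623-86705671, minus strand, element beginning 212 bases before the start: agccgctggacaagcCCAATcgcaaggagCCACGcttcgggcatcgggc
Pdia6, chr12:17266476-17266524, plus strand, 98 bases before the start: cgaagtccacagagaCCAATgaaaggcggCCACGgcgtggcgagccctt
Creld2, chr15:88819505-88819553, plus strand, reverse complement, 126 bases before the start: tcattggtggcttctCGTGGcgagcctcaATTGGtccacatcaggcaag
Among these genes Pdia6 alone had an interval above 1 in the reduced set, at 1.5-fold (1.07 to 2.12), whereas Creld2 stood at 1.58-fold (0.695 to 3.70) and Hsp90b1 at 0.754-fold (0.632 to 0.898).

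Hemoglobin and NK cell genes had some of the smallest ratios. Gzma, a cytotoxic granule protease, stood at 580 CPM in lenvatinib and 54.6 CPM in combo B cells, and the members with NK UMIs gave 90.6% of its lenvatinib counts. Il2rb, a chain of the interleukin-2 and interleukin-15 receptors, stood at 232 and 38.8 CPM. All 6 T and NK genes that passed the filter were at most 0.5 times the lenvatinib level, with a median of -1.71. Only 3 passed in the reduced set and the median was -0.81, and the NK genes summed to 158 and 61.3 CPM there. The 4 erythroid genes had a median of -8.57 in all B cells, and the hemoglobin sums were 9.99 and 8.68 CPM in the reduced set.

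In the reduced set, 17 of 3126 genes (0.544%) were at least 2-fold higher in the combo library and 134 (4.29%) at most 0.5 times, with an all-gene median of -0.22. Of the calls in all B cells, 13 of the 61 higher and 114 of the 254 lower genes were called here again. With each of these cells thinned to 1500 UMIs, 33 (1.03%) of 3217 genes were higher and 252 (7.83%) lower. T cells had 17 (0.571%) higher and 29 (0.973%) lower of 2979 genes, with a median of -0.16. The B cell values that follow are from the reduced set unless all B cells are named, and T cell ratios are given beside them because T cells share each library.

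**Figure D3:**
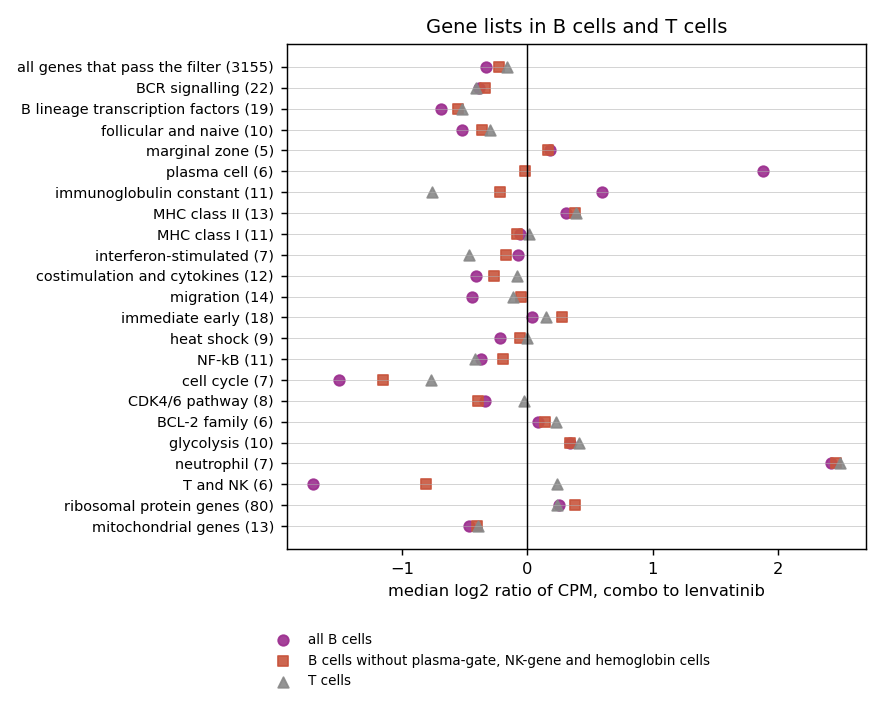
Median log2 ratio of CPM, combo to lenvatinib, for the genes of each list that passed the level filter (number in brackets), in all B cells, the reduced set and T cells. The plasma cell list lies at 1.88 in all B cells and at -0.02 in the reduced set, while MHC class II lies at 0.31, 0.38 and 0.39.

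The ratio between the libraries went with the span of a gene on the genome. In the reduced set, the quartile of genes with the shortest span (0.374 to 9.57 kb) had a median log2 ratio of 0.13, and the next quartiles had -0.14, -0.35 and -0.50. T cells showed the same order, from 0.06 over -0.09 and -0.27 to -0.35. Of the lower calls in the reduced set, 47 fell in the quartile with the longest span and 11 in the shortest, whereas 14 of the higher calls were in the shortest. Gene lists are therefore also given relative to the median of each gene's span quartile. Treatment and library cannot be told apart in this pattern.

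**Figure D4:**
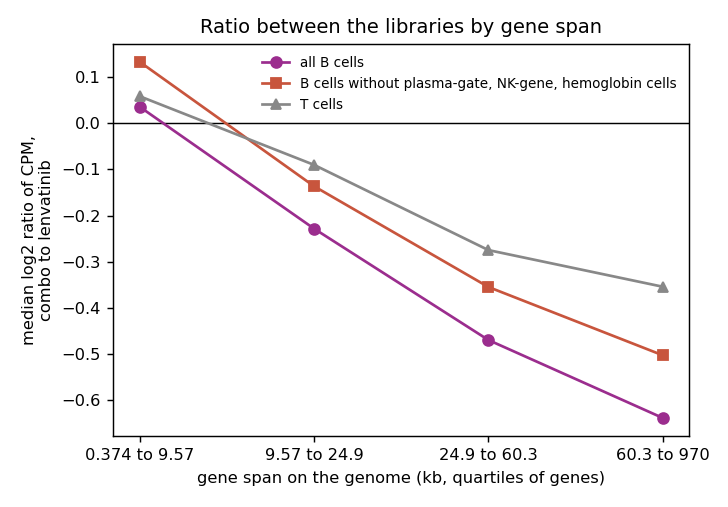
Median log2 ratio of CPM, combo to lenvatinib, in quartiles of gene span (kb), for all B cells, the reduced set and T cells. All 3 lines fall with span, in the reduced set from 0.13 to -0.50 and in T cells from 0.06 to -0.35.

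Several transcription factors of the B lineage were lower in the combo library, while Ebf1 was level. The 19 factors had a median of -0.55 in the reduced set, against -0.22 for all genes and -0.10 once each gene's span quartile was subtracted. In T cells 7 of the factors passed the filter, with a median of -0.52. Pax5, which maintains B cell identity, stood at 541 and 285 CPM, 0.526-fold (0.448 to 0.618). Spib, an Ets family factor, stood at 185 and 83.9 CPM, 0.454-fold (0.339 to 0.605), and was the only one of the 19 past 2-fold. Ikzf3 (Aiolos) stood at 285 and 158 CPM, 0.555-fold. Bach2, which delays plasma cell differentiation, stood at 0.615-fold and Pou2f2 (Oct-2) at 0.586-fold. Ebf1 stood at 1809 and 1818 CPM, 1.01-fold (0.933 to 1.08). Pax5 (186 kb), Ikzf3 (81.1 kb), Bach2 (347 kb), Pou2f2 (92.4 kb) and Ebf1 (391 kb) all lie in the quartile with the longest span. The median log2 ratio of that quartile was -0.50, so single ratios of these factors are to be read against it. Klf2, a quiescence and trafficking factor, lay above 1 at 1594 and 2288 CPM, 1.43-fold (1.33 to 1.54), and in T cells at 1.56-fold.

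Shares of cells at equal depth gave the same picture for these factors. After thinning to 1500 UMIs, Pax5 was found in 54.8% (49.7 to 59.9) of 383 lenvatinib cells and 33.7% (29.3 to 38.3) of 445 combo cells of the reduced set. Cells below 1500 UMIs, 9 in the lenvatinib and 7 in the combo library, were left out, and the unthinned shares were 76.5% and 58.4%. T cells held Pax5 in 0.0778% and 0.105%. Spib was found in 24.3% and 12.6% of B cells, and Ikzf3, which T cells also express (20.1% and 14.9%), in 33.9% and 19.8%. Ebf1 was found in 89.8% and 88.3%. Klf2 went the other way, with 76.2% and 85.4%, and 49.5% and 58.5% in T cells.

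**Figure D5:**
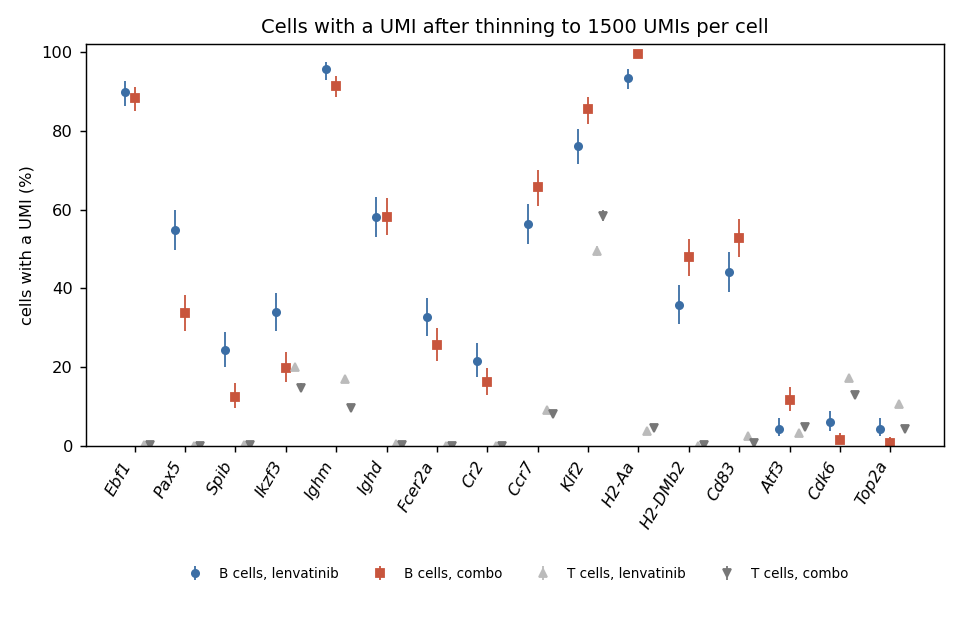
Share of cells (%) with at least 1 UMI after thinning to 1500 UMIs per cell, in the reduced set of B cells (383 lenvatinib, 445 combo cells) and in T cells, with exact binomial 95% intervals. Pax5 lies at 54.8% and 33.7% in B cells, and Ighd at 58.2% in both libraries.

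Genes of the B cell receptor complex and its coreceptors lay near the all-gene median. None of the 23 passed 2-fold, and their median was -0.34, or -0.02 relative to span. Cd22 stood at 0.749-fold and the adaptor Bank1 at 0.820-fold. The kinases differed among themselves, with Lyn at 1.07-fold, Syk at 0.683-fold and Prkcb at 0.618-fold. Cr2 (0.604-fold) lay at the lower end and the tetraspanin Cd37 (1.20-fold) above 1. Among the 10 follicular genes the median was -0.36, or -0.19 relative to span. Ighd stood at 0.879-fold and Fcer2a at 0.800-fold. Ccr7, the receptor for lymph node chemokines, was higher at 687 and 870 CPM, 1.27-fold (1.13 to 1.42).

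Naive features were shared by most B cells of both libraries. Ighd was found in 58.2% of thinned cells in each library, with intervals of 53.1 to 63.2 and 53.5 to 62.8. Ighm and Ighd occurred together in 57.2% and 55.1%, or 77.3% and 77.4% without thinning. Fcer2a was found in 32.6% and 25.6% and Cr2 in 21.7% and 16.2%. Of marginal zone genes 5 of 11 passed the filter with a median of 0.17, of B-1 genes 1 of 6 passed in all B cells, and of germinal center genes none of 8 passed, with a sum of 54.3 and 31.5 CPM in all B cells.

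MHC class II genes, which present peptides to helper T cells, lay above the all-gene median. All 13 MHC class II genes passed the filter and none passed 2-fold, and 11 of the 13 lay above 1, with a median of 0.38 against -0.22 for all genes. They summed to 19146 CPM in the lenvatinib and 26566 CPM in the combo library. Cd74 stood at 9264 and 12869 CPM, 1.39-fold (1.35 to 1.43). H2-Eb1, the beta chain of I-E, stood at 2155 and 3399 CPM, 1.58-fold (1.48 to 1.68). H2-Aa and H2-Ab1, the chains of I-A, stood at 1.44-fold and 1.35-fold. The peptide loading subunits H2-DMa (1.39-fold) and H2-DMb2 (1.43-fold) followed. Ciita, the transactivator of these genes, was below 1 at 166 and 116 CPM, 0.699-fold (0.533 to 0.917).

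The class II genes were not higher in B cells alone. In T cells Cd74 stood at 1.31-fold and the list's median was 0.39, over the 5 genes that passed there, whose whole list summed to 450 and 549 CPM. At equal depth H2-Aa was found in 93.5% and 99.6% of B cells and in 3.81% and 4.60% of T cells, and H2-DMb2 in 35.8% and 47.9% of B cells. MHC class I genes had a median of -0.09, with 0.01 in T cells.

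Immediate early and activation genes were mixed. The list of 19 had 17 genes past the filter in the reduced set, with a median of 0.28, or 0.22 relative to span, and 0.15 in T cells. Jund stood at 2534 and 4250 CPM, 1.68-fold, with 1.46-fold in T cells. Jun (1.64-fold) and Fos (1.5-fold) were also above 1, while Egr1 (0.702-fold) and the RNA decay factor Zfp36 (0.826-fold) were below it. Endogenous Myc stood at 123 and 212 CPM, 1.72-fold (1.34 to 2.23), whereas T cells had 0.790-fold. Atf3, a stress-induced factor, was the list's only member past 2-fold, at 55.7 and 150 CPM, 2.69-fold (1.90 to 3.85), with 1.54-fold in T cells.

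Among the largest ratios of the reduced set, Socs3, a feedback inhibitor of cytokine signaling, stood at 36.4 and 115 CPM, 3.15-fold (2.07 to 4.86), with 1.26-fold in T cells. It was found in 3.66% and 12.4% of thinned B cells and in 12.2% and 14.8% of T cells. Cebpb, a myeloid and stress factor, stood at 206 and 436 CPM, 2.11-fold (1.75 to 2.55), with 1.89-fold in T cells, and was found in 36.5% of combo T cells against 42.7% of combo B cells. Ifitm2 stood at 3.61-fold (4.49-fold in T cells) and Ifitm3 at 3.15-fold. Ifitm1 (7.30-fold in B cells, 7.34-fold in T cells), Lyz2 (6.28-fold and 5.63-fold) and Chil3 (12.8-fold and 9.18-fold), all abundant in myeloid cells, were higher in both cell types.

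NF-kB targets were close to the all-gene value, with a median of -0.19 over 11 genes. Cd83, an activation marker, stood at 1.22-fold and was found in 44.1% and 52.8% of thinned cells. Nfkbia, the inhibitor of the pathway, stood at 1.32-fold and Nfkb1 at 0.606-fold. Glycolysis genes had a median of 0.34, with 10 of 10 above 1, and 0.41 in T cells. In all B cells Ldha stood at 1.55-fold and Gapdh at 1.30-fold.

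Immunoglobulin constant genes of the reduced set differed by chain. Ighm stood at 3915 and 2467 CPM, 0.630-fold (0.595 to 0.667), with 0.530-fold in T cells. Igkc was higher, at 6302 and 8234 CPM, 1.31-fold (1.26 to 1.36), with 1.17-fold in T cells. The median B cell of the lenvatinib library held 11 Ighm and 20 Igkc UMIs, and that of the combo library 8 and 29. Iglc1 stood at 1.09-fold in B cells and 5.17-fold in T cells, Iglc2 at 0.764-fold and Iglc3 at 0.932-fold in B cells. Igha stood at 223 and 116 CPM, 0.520-fold, and at 0.590-fold in T cells. Cells with more Iglc1 than Igkc made up 4.08% and 5.75% of the reduced set, and cells with more Iglc2 and Iglc3 than Igkc made up 6.63% and 3.98%.

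Class-switched transcripts were sparse in the reduced set, from which the plasma gate had removed cells rich in immunoglobulin RNA. At least 2 UMIs of switched heavy chains were found in 7.31% (4.91 to 10.4) and 4.72% (2.94 to 7.12) of its thinned cells, against 3.42% (2.99 to 3.9) and 2.33% (1.92 to 2.80) of T cells. At 1 UMI the shares were 26.4% and 22.5% in B cells and 22.2% and 20.2% in T cells. Without thinning, at least 2 UMIs were found in 20.9% and 16.2% of B cells and in 29.9% and 23.8% of the deeper T cells. Jchain was found in 9.14% and 10.3% of thinned B cells and in 7.13% and 8.78% of T cells.

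Transcripts of Vpreb1 and Igll1, the surrogate light chain of pre-B cells, came from 4 cells of the lenvatinib library. The counts in this paragraph are over all B cells. Vpreb1 and Igll1 had 53 and 52 counts in lenvatinib B cells and 0 in the combo library. All 4 cells held both genes, with 16, 18, 2 and 17 UMIs of Vpreb1 and 9, 17, 13 and 13 of Igll1. They held 26566, 23765, 13778 and 6841 UMIs, and 3 of them carried 147, 115 and 33 mitosis UMIs while the fourth carried 0. Ebf1 had 30, 48, 15 and 44 UMIs in these cells. Of the Vpreb1 counts, 64.2% came from members that also held 3 or more NK UMIs. The progenitor genes Myb (109 and 14 counts) and Sox4 (74 and 6 counts) were also higher in the lenvatinib library, as was Cd93 (46 and 18). In the order above, the 4 cells held 11, 9, 7 and 10 UMIs of Myb and 1, 2, 0 and 9 of Sox4. They held 4, 7, 4 and 1 UMIs of Cd93, so other members gave most of the lenvatinib counts of these 3 genes. Rag1 had 7 and 0 counts and Rag2 had 0 in both.

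Proliferation genes were lower in the combo library, in B cells as in T cells. Of the 22 cell cycle genes 4 passed the filter in the reduced set and 2 of these were past 2-fold, with a median of -1.15, or -1.28 relative to span, and -0.77 over 15 genes in T cells. Top2a, a topoisomerase of dividing cells, stood at 64.2 and 7.52 CPM, 0.117-fold (0.0507 to 0.249), and in T cells at 0.282-fold. Mki67, below the filter in the reduced set, stood at 40.0 and 5.21 CPM, 0.130-fold, and in T cells at 0.224-fold. Pcna, the replication clamp, stood at 228 and 128 CPM, 0.564-fold. The microtubule regulator Stmn1 stood at 0.360-fold, with 0.404-fold in T cells.

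Few B cells gave these transcripts. At least 2 mitosis UMIs were found in 14 of 392 lenvatinib cells (3.57%, 1.97 to 5.92) and 4 of 452 combo cells (0.885%, 0.242 to 2.25) of the reduced set, with intervals that meet between 1.97% and 2.25%. Over all B cells the numbers were 22 (4.98%) and 15 (3.13%), and 8 of the 15 combo cells met the plasma gate. In T cells the shares were 23.3% and 8.05%. After thinning, 7 of 383 lenvatinib and 0 of 445 combo cells of the reduced set (upper limit 0.826%) had such UMIs, and 9.84% and 2.50% of T cells did.

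Targets and partners of palbociclib itself were sparse in B cells. Of the 20 CDK4/6 pathway genes 6 passed the filter in the reduced set, none past 2-fold, with a median of -0.39. Cdk6, which lay below the filter in the reduced set, stood at 46.4 and 13.3 CPM, 0.287-fold (0.143 to 0.558), against 0.870-fold in T cells. It was found in 6.01% (3.84 to 8.87) and 1.57% (0.635 to 3.21) of thinned B cells, but in 4.70% (2.81 to 7.33) and 2.47% (1.24 to 4.38) in a second random draw, where the intervals overlap. Cdk4 stood at 0.955-fold, the D cyclins Ccnd2 and Ccnd3 at 0.612-fold and 1.18-fold, and Rb1, the substrate of these kinases, at 0.598-fold. None of the 10 lenvatinib target kinases passed the filter.

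Other genes below 1 were of several kinds. Cecr2, a bromodomain protein, stood at 74.9 and 19.7 CPM, 0.262-fold, and at 1.07-fold in T cells. Icosl, the ligand of the T cell costimulator ICOS, stood at 70.7 and 24.3 CPM, 0.344-fold (0.204 to 0.572), with 0.572-fold in T cells. The methylcytosine oxidase Tet3 stood at 0.350-fold and the methyltransferase Ezh2 at 0.289-fold, with 0.548-fold in T cells. Scd1 stood at 764 and 432 CPM, 0.565-fold, and Scd2, a second desaturase, at 0.286-fold. Cd24a stood at 386 and 242 CPM, 0.628-fold, whereas T cells had 1.83-fold.

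B cells also varied within each library. Over all B cells the residual variance of scaled counts was led in the combo library by Igkc (20.8), Jchain (13.3), Hsp90b1 (10.3) and Mzb1 (9.32), against a median of 1.19 over genes. In the reduced set Iglc1 (13.0), Igkc (7.13) and Apoe (6.59) remained high in the combo library, and Iglc1 (7.52) was high in the lenvatinib library. Apoe, a lipid carrier that macrophages and hepatocytes make in quantity, stood at 244 and 421 CPM, 1.73-fold (1.44 to 2.07), with 0.95-fold in T cells. It was found in 19.3% and 29.7% of thinned B cells and in 3.13% and 3.15% of T cells.

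A small set of B cells was rich in Crip1 and S100a6, genes that are high in antigen-experienced lymphocytes. S100a6 stood at 224 and 456 CPM, 2.03-fold (1.70 to 2.44), and Crip1 at 560 and 801 CPM, 1.43-fold (1.26 to 1.62), with 0.962-fold and 0.93-fold in T cells. Cells with at least 4 UMIs of the pair after thinning numbered 17 of 383 (4.44%) in the lenvatinib and 55 of 445 (12.4%) in the combo library. A second random draw gave 14 (3.66%) and 48 (10.8%). The cut ran through a continuous range, with 26 and 33 cells at 3 UMIs and 6 and 25 cells at 4, and 44.1% and 42.0% of T cells passed it.

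The cells above this cut carried fewer naive transcripts. Ighd was found in 35.3% of them against 59.3% of the rest in the lenvatinib library, and in 34.5% against 61.5% in the combo library. Cr2 was found in 11.8% against 22.1% and in 3.64% against 17.9%, and Fcer2a in 17.6% against 33.3% and in 16.4% against 26.9%.

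The remaining groups gave little signal. Of 28 interferon-response genes, 1 of them not listed in the files, 7 passed the filter in the reduced set with a median of -0.17 and none past 2-fold. Costimulation and cytokine genes had a median of -0.26 over 13 genes with 2 at most 0.5 times, and the chemokines Ccl3 and Ccl4 stood at 0.411-fold and 0.545-fold. Il10 had 0 lenvatinib and 10 combo counts in all B cells, and 1 cell gave 70.0% of the latter. Migration genes had a median of -0.05 over 12 genes, BCL-2 family genes 0.14, and heat shock genes -0.06 over 9 genes, with Hspa1b at 0.490-fold. Hspa1b was found in only 18 of 392 lenvatinib cells of the reduced set, and 1 cell gave 33.3% of its counts there. Ribosomal protein genes had a median of 0.38 in the reduced set and 0.24 in T cells, and the 13 mitochondrial transcripts -0.40 in both.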

How the data were processed

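Live CD45+ tumor cells were profiled with 10x Genomics 3′ v3 chemistry. The authors aligned reads to mm10 and deposited filtered matrices of raw UMI counts per gene and cell. The submitters' notes name Cell Ranger 5.0.1 and the file headers 6.0.1. The members and gene lists were chosen with earlier results of these data known. Groups came from the sample labels. Counts were summed over B cells and divided by their total. A gene entered a comparison at 50 CPM in 1 library, and was called past 2-fold. Shares have Clopper-Pearson intervals. Ratios have ranges from the lower combo limit over the upper lenvatinib limit to the upper combo limit over the lower lenvatinib limit. These limits are exact Poisson limits for genes and Clopper-Pearson limits for the share of B cells. A gene with under 3 counts in a library was set to 3 counts there, so its ratio is a bound. Genes were named by rule: the 15 largest and smallest ratios, the 20 most enriched genes, immunoglobulin genes, variable genes and list leaders; the chaperones, precursor genes, Crip1, S100a6 and Apoe were picked after values were seen. T cells held at least 3 Cd3 UMIs, at most 1 Cd79 UMI and no Ms4a1 or Csf1r UMI. They were held under the same 0.5% limit for S100a8 and S100a9 as B cells. Gene spans came from GENCODE. The steps were tested on simulated data. Python 3.11.15, numpy 2.4.6, scipy 1.17.1, scanpy 1.11.5 (Scrublet), R 4.3.3 and edgeR 4.0.16 (TMM factors) were used. Alternatives varied the gates, cell filters, doublets, scaling, level filter, fold, cell weights and thinning depth. The plasma gate, reduced set and second draw were added after the data were seen. A few genes of the lists are not reported here.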

Additional observations from a re-analysis of the deposited data

How the results depend on the processing

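With 1 library per treatment, depth and counting limit every ratio, and no spread between mice was measured. No paired analysis was possible because each group holds 1 library. No test was run, so an alternative is compared by size and direction only.

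The share of B cells in the lenvatinib library was 2.42% with Ms4a1 of at least 2 UMIs, 2.51% with no Cd3 UMI and 2.76% in the reduced set. In the combo library it was 3.08%, 3.44% and, with S100 under 0.2%, 3.10%, where the ratio of shares was 1.01. Genes higher and lower numbered 113 and 65 (TMM), 119 and 73 (median ratio), 176 and 908 (10 CPM), 39 and 104 (100 CPM), 26 and 148 (mean per-cell CPM), 127 and 998 (fold 1.5), 36 and 37 (fold 3), 19 and 140 (without plasma-gate cells) and 17 and 134 (reduced set), with 120 higher on the total without the named families and 33 higher at equal depth. The all-gene median was 0.0631 (TMM), 0.0350 (median ratio), -0.13 (without families), -0.22 (without plasma-gate cells) and -0.22 (reduced set).

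The B lineage factor median was -0.36 (TMM), -0.37 (median ratio), -0.49 (without families) and -0.55 (reduced set). The plasma cell median was 2.18, 2.17 and 2.05 under these 3 scalings, 0.77 with mean per-cell CPM, 2.11 with S100 under 0.2%, 1.74 without doublets and 0.11 at equal depth, and turned to -0.11 without plasma-gate cells and -0.0173 in the reduced set. The MHC class II median was 0.64, 0.63 and 0.50 under the scalings, 0.43 with mean per-cell CPM, 0.20 with S100 under 0.2%, 0.19 without doublets, 0.52 without plasma-gate cells and 0.46 at equal depth. The cell cycle median was -1.18 (median ratio), -0.70 (without families), -0.89 (10 CPM), -0.71 (mean per-cell CPM), -1.15 (reduced set) and -0.65 (equal depth).

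Class-switched shares were 25.6% and 24.4% at 1 UMI in place of 2, and 4.72% at 2 UMIs in the combo reduced set. Ighm with Ighd gave 42.3% and 35.7% at 1000 UMIs and 67.0% and 61.9% at 2000. In the combo library, Cr2 without Fcer2a gave 6.68% at 1000 UMIs and 8.47% in the second draw, Fcer2a without Cr2 gave 24.6% at 2000 UMIs, and mitosis UMIs gave 0 in the reduced set.

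Beside the values above, 3029 values of named genes and other lists stayed within the spread set for them, and 848 moved by more. A change of sign was counted only where the main ratio was past 2-fold, and 33 values did so. Sign changes of smaller ratios were not counted, although scaling alone moved the all-gene median from -0.33 to 0.0631 (TMM). Among genes past 2-fold, the sign changed mainly with the cells used. Without plasma-gate cells the log2 ratio was -0.43 for Eaf2, -0.25 for Fkbp11, -0.55 for Hsp90b1, -1.66 for Igha, -0.0131 for Ighg2b, -0.75 for Ighv7-3, -0.28 for Igkv10-96, -1.10 for Jchain, -0.60 for Ly6c2, -0.10 for Pdia4, -0.11 for Sec11c, -0.44 for Txndc5 and -0.0599 for Xbp1. In the reduced set it was -0.30 for Eaf2, -0.57 for Fkbp11, 0.0190 for Gzmb, 0.38 for Hbb-bs, -0.41 for Hsp90b1, -0.94 for Igha, -0.25 for Ighg3, -0.57 for Igkv10-96, -0.30 for Ly6c2, -0.19 for Pdia4, -0.0537 for Sec11c and -0.35 for Txndc5. At equal depth it was 0.52 for Hbb-bs, -0.65 for Hsp90b1, -0.88 for Igha, -0.33 for Ly6c2, -0.14 for Manf, 0.14 for Nr4a2 and -0.44 for Pdia4, and Ly6c2 gave -0.10 with mean per-cell CPM. The cells left out or thinned by construction set these values, and why those cells differ was not tested.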
